A study of Mus musculus with 16 samples.

Results

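The genes described here are 10 cadherins, 2 of the classical type I class (Cdh2 and Cdh4), 7 of type II (Cdh6, Cdh8, Cdh9, Cdh10, Cdh11, Cdh12 and Cdh18), and the atypical Cdh13. They were listed by name, with earlier results of these data known but by no threshold on their values, and all 10 were found among the 19999 genes of the count table. Single-nucleus RNA-Seq (10x Genomics 3′ chemistry) had been run on the medial PFC, with its prelimbic and infralimbic areas, of 16 male mice at 22 weeks of age. There were 4 mice in each of 4 groups. The WT control mice (B6;129) and the 3xTg-AD mice had breathed air in the chambers and were injected with pyrazole, an inhibitor of alcohol dehydrogenase, in saline. The WT alcohol and 3xTg-AD alcohol mice had undergone chronic intermittent exposure to ethanol vapor with injections of ethanol and pyrazole, so that all 4 groups share the pyrazole and the chambers. The 3xTg-AD mice carry, on a B6;129 background, 3 engineered alleles, among them the transgenes for mutant human APP and tau, which are driven by the neuronal Thy1 promoter. The study calls the WT mice littermate controls. The engineered alleles occur together in the 3xTg-AD mice, so that their effects cannot be told apart.

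Cadherins are calcium-dependent adhesion proteins of the cell surface. In type I and type II cadherins, the outermost extracellular domain binds a cadherin of the facing cell, by preference the same or a closely related one, and the cytoplasmic tail holds β-catenin and p120-catenin, through which the junction is tied to actin. Cdh2 (N-cadherin) is the broadly used cadherin of neural tissue and of synapses, and Cdh4 (R-cadherin) is its nearest relative. Type II cadherins are known for their selective use by neuron types and cortical layers, where they contribute to laminar sorting and to the choice of synaptic partners. Cdh13 (T-cadherin) lacks a cytoplasmic tail and is held to the membrane by a lipid anchor.

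The members lie in few places of the genome (GRCm38 gene models). On chromosome 15, 5 of the type II genes follow each other. They are Cdh6 (chr15:13028701-13173675), Cdh9 (chr15:16728756-16857094), Cdh10 (chr15:18818947-19014236), Cdh12 (chr15:20449265-21589533) and Cdh18 (chr15:22549022-23474418). Together they span 10.45 Mb, in which the count table holds 9 genes in all. Chromosome 8 holds Cdh8 (chr8:99024471-99416471), Cdh11 (chr8:102632095-102785642) and Cdh13 (chr8:118283733-119324921). Cdh4 is on chromosome 2 (chr2:179442431-179899373). RefSeq start sites with flanking sequence (GRCm38.p6, 250 bases before to 50 bases from the start site on) were at hand for 6 members, Cdh6, Cdh8, Cdh9, Cdh10, Cdh12 and Cdh18. Cdh6, Cdh9 and Cdh10 are printed because Cdh6 and Cdh9 share a run of letters and because Cdh10 is the type II member whose level changed between groups below. Capitals mark the run shared by Cdh6 (chr15:13173626-13173925, minus strand) and Cdh9 (chr15:16728665-16728964, plus strand), and, in Cdh10 (chr15:18820079-18820378, plus strand), each CG.
Cdh6: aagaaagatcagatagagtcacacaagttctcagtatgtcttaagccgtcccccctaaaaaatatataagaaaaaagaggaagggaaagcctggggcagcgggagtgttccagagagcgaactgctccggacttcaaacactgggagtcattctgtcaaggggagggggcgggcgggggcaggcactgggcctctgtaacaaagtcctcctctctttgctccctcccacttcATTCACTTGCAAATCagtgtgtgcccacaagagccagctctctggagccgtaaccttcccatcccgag
Cdh9: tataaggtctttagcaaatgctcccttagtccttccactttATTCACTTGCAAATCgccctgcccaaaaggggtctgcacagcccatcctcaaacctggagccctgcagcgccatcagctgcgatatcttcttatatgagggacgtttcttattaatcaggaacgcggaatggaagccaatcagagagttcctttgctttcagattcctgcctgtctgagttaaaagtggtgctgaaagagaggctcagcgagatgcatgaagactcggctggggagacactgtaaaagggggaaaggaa
Cdh10: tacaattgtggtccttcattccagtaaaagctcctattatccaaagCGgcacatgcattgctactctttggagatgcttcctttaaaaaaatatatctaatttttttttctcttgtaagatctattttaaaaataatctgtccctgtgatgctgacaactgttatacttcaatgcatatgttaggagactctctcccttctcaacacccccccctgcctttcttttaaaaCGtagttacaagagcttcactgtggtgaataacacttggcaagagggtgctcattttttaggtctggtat
The shared run has 15 bases and starts 18 bases before the start site in Cdh6 and 209 bases before it in Cdh9. Of 32851 promoter windows of the same length, from 27025 genes and searched on both strands, 2 held it, those of Cdh6 and Cdh9. The Cdh10 window had a GC content of 37.7% and 2 CG, where the median window had 52.7% and 7, and 23.3% of all windows had as few CG. The window of Cdh10 begins at chr15:18820079, inside the gene model that begins at chr15:18818947. It is thus of an internal start site and not of the first base of the model. The Cdh9 window begins at chr15:16728665, and the Cdh9 model begins at chr15:16728756, within the 250 bases before the start site. The Cdh9 start site is thus also internal, and the offset of 209 bases is not from the first base of its model. A run of letters is a description of these windows, and no binding was measured in this study.

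The table held 114512 nuclei and 216742276 UMIs, between 4955 and 9096 nuclei and between 9622031 and 17544364 UMIs per mouse, with a median of 1543 UMIs and 1019 genes per nucleus. The 10 members took 145914 UMIs. Cell types were rebuilt by clustering without any of 101 cadherin superfamily genes, and are called by the markers that their clusters raised, so that "oligodendrocyte-like" stands for a cluster named in this way. In all, 72239 nuclei were named and 36.9% were not. Of 112806 different barcodes, 1.5% occurred in 2 or more mice. The libraries of 3 mice, 26 and 27 of the WT control and 12 of the 3xTg-AD group, stood apart with at least 17914 CPM (counts scaled to the total of the library) of the ribosomal RNA-associated transcript Gm42418, against at most 4250 CPM in the other 13. In 9 of the 103 pairs of a member and a cell type that could be tested, those 3 mice were all above the other 13, and in no pair were they all below. The share of such pairs over all genes is not given, so the 9 are not read as particular to these members. The 9 pairs are Cdh18 in 4 types, Cdh8 in 3, and Cdh11 and Cdh12 in 1 each. For Cdh2, Cdh4, Cdh6, Cdh9, Cdh10 and Cdh13 the ranges of the 3 and of the 13 mice overlapped in every type tested.

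Each member had its own order of cell types. Levels are CPM from the counts summed over the nuclei of a type in each mouse, with the total multiplied by the TMM factor of edgeR, and medians are over the mice of all 4 groups with at least 10 nuclei of the type, in 20 types. Because the 3′ tags of different genes are not counted with the same efficiency, levels are compared between cell types and not between members. In no member did 2 types that follow each other in its order differ beyond the ranges of their mice (0 of 190 neighboring pairs), so that the order is of broad steps.

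**Figure D1:**
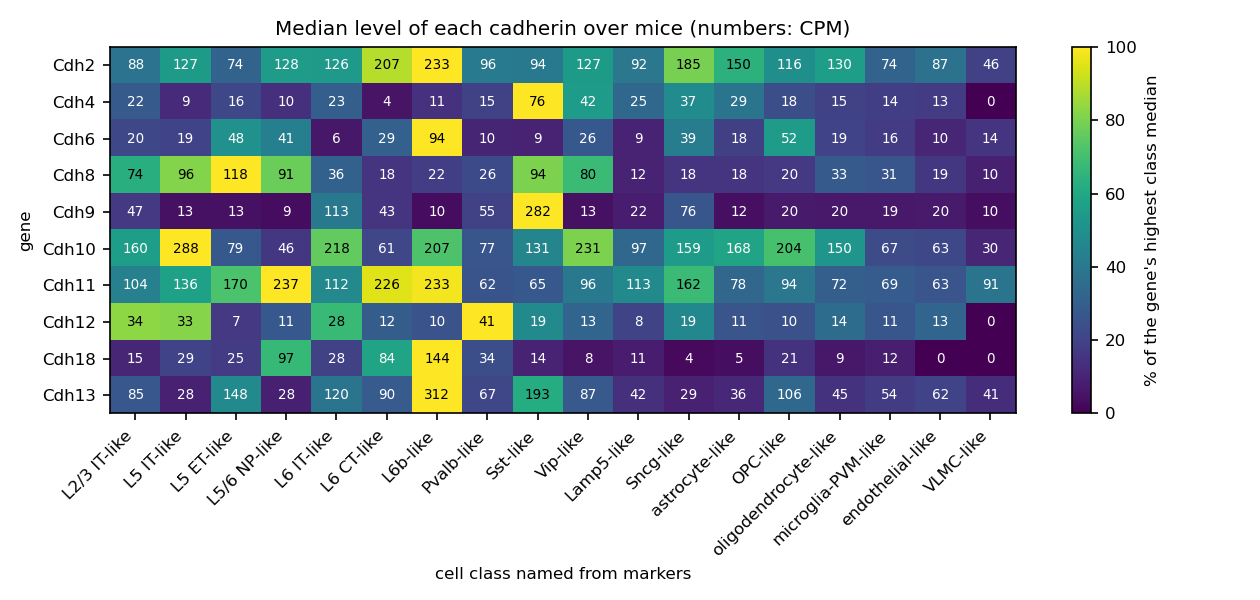
Heat map of the median level (CPM over mice) of the 10 cadherins in marker-named cell types, in which each cell prints the median and the color gives it as a percent of the gene's highest median. With the mice of all 4 groups pooled, Cdh6, Cdh18, Cdh13 and Cdh2 were highest in L6b-like nuclei (in WT mice alone, Cdh2 was highest in oligodendrocyte-like nuclei), Cdh4 and Cdh9 in Sst-like nuclei and Cdh10 in L5 IT-like nuclei.

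Among the type I cadherins, Cdh2 had a median above 0 in every type. Its median was 233 CPM (range, 138–333) in the L6b-like nuclei of the deepest cortical layer, 207 CPM in L6 CT-like (corticothalamic) nuclei, 150 CPM in astrocyte-like nuclei, 88.5 CPM in L2/3 IT-like (intratelencephalic) nuclei, and 45.5 CPM in VLMC-like (vascular leptomeningeal) nuclei, the lowest. Over the mice of all groups, the highest median was 5.12 times the lowest, which is a small span beside the 30.9 times of Cdh9. The place of oligodendrocyte-like nuclei in this order depended on the genotype, since their median was 130 CPM over all mice, 309 CPM in the 8 WT mice, above the 239 CPM of WT L6b-like nuclei, and 61.4 CPM in the 8 3xTg-AD mice. Cdh4 instead was concentrated in Sst-like interneurons, at 76.1 CPM (43.9–110), followed by Vip-like nuclei at 42.1 CPM. The Sst-like range of Cdh4 lay above that of 12 of the other 19 types.

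Among the type II cadherins, Cdh9 and Cdh18 had the most restricted levels. Cdh9 stood at 282 CPM (162–405) in Sst-like nuclei, above the range of 16 of the other 19 types, and next at 113 CPM (69.3–180) in L6 IT-like nuclei. Cdh18 stood at 144 CPM in L6b-like, 96.6 CPM in L5/6 NP-like (near-projecting) and 84.5 CPM in L6 CT-like nuclei, and the first was above 14 of 19 types. These 3 types are named as deep-layer projection neurons, and L6 IT-like nuclei, also named as such, did not share the high Cdh18. The L6 IT name rests on fewer of its markers. Its 2 clusters each raised 4 of 8, with mean log2 folds of 0.89 and 0.70. Those 8 had median sums of 143–179 CPM over the 4 groups in L6 IT-like nuclei and 127–174 CPM in L6 CT-like nuclei. The 6 L5 IT markers had 166–202 CPM in L6 IT-like nuclei. The layer of these nuclei is thus less certain.

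Cdh10 was highest in L5 IT-like nuclei at 288 CPM (226–482), above the range of 12 of 19 types, with 231 CPM in Vip-like and 219 CPM in L6 IT-like nuclei. Cdh8 was highest in the L5 ET-like (extratelencephalic) nuclei at 118 CPM (78.6–201), followed by L5 IT-like at 96.0 CPM and Sst-like at 94.4 CPM. Layer 5 thus held the highest medians of both, in different projection classes. Cdh11 was spread over the deep layers, with 237 CPM in L5/6 NP-like, 233 CPM in L6b-like and 226 CPM in L6 CT-like nuclei, which cannot be ordered by their ranges. The highest median of Cdh11 was 3.86 times its lowest, in Pvalb-like nuclei. Cdh6 reached 93.8 CPM in L6b-like nuclei, followed by 51.6 CPM in oligodendrocyte precursor (OPC)-like and 47.6 CPM in L5 ET-like nuclei, and its L6b-like range lay above that of 1 of the other types. Cdh12 was low throughout, with its highest median, 40.7 CPM, in Pvalb-like nuclei and 33.9 CPM in L2/3 IT-like nuclei. Cdh13, the lipid-anchored member, had 312 CPM (219–420) in L6b-like nuclei, above 16 of 19 types, 193 CPM in Sst-like and 148 CPM in L5 ET-like nuclei, with its lowest median, 27.8 CPM, in L5/6 NP-like nuclei.

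The 10 orders were different from each other. Across the 20 types, the 2 members with the most alike levels (mean log2(CPM + 1) over mice) were Cdh6 and Cdh18 (Pearson's r = 0.70) and the 2 least alike were Cdh6 and Cdh9 (r = -0.07), although all 3 lie on the same stretch of chromosome 15. These r values describe 20 types from the same libraries, which differ in depth, from 254307 UMIs in mural-like to 37813342 UMIs in L5 IT-like nuclei. Several members had a median of 0 CPM in mural-like nuclei. The part of such zeros in r was not tested. Of 14022 genes, the ones whose levels followed a member's most closely over the 20 types were Gpr21 for Cdh18 (r = 0.93), A330008L17Rik for Cdh8 (0.91), Grid1 for Cdh6 (0.88), Ano10 for Cdh10 (0.87), Zmynd11 for Cdh11 (0.84), Cacna2d3 for Cdh4 (0.84), Oxtr for Cdh9 (0.78), Susd1 for Cdh13 (0.76) and Fam163b for Cdh2 (0.75). The genes that came next were Prrt3 and Trpv6 for Cdh18, Gm15631 and Jade3 for Cdh8, Zfp626 and Dcun1d5 for Cdh6, 1110051M20Rik and Zfp329 for Cdh10, Chsy3 and Wdr90 for Cdh11, Lurap1l and Lrtm1 for Cdh4, Ecel1 and Gm32647 for Cdh9, Igfbp3 and Shisa6 for Cdh13, and Dop1b and Alyref for Cdh2, with r between 0.73 and 0.90. Oxtr encodes the oxytocin receptor, which is known from Sst interneurons of the PFC.

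Low counts in glia have to be read against free RNA, since UMIs of neuronal transcripts occur in droplets of other cells. Slc17a7, the vesicular glutamate transporter of excitatory neurons, stood at 715 CPM in all glutamatergic nuclei, and the oligodendrocyte-like nuclei had 63.4% of that level, OPC-like 54.1%, astrocyte-like 49.8% and microglia-PVM-like (perivascular macrophage) 69.7%. Among the nuclei of these 4 types, the same share was above the Slc17a7 share for Cdh2 in oligodendrocyte-like (164%), astrocyte-like (135%) and OPC-like (95.8%) nuclei, for Cdh4 in astrocyte-like (176%), OPC-like (110%), microglia-PVM-like (95.1%) and oligodendrocyte-like (86.0%) nuclei, for Cdh6 in OPC-like (202%), oligodendrocyte-like (78.6%) and astrocyte-like (72.7%) nuclei, for Cdh13 (124%), Cdh11 (65.5%) and Cdh18 (62.2%) in OPC-like nuclei, for Cdh11 in astrocyte-like nuclei (53.3%), for Cdh12 in oligodendrocyte-like nuclei (69.7%), and for Cdh10 in OPC-like (118%), astrocyte-like (89.0%) and oligodendrocyte-like (82.9%) nuclei. Of these, the shares of Cdh11, Cdh18 and Cdh12 were close to that of Slc17a7 and are not read as expression. The base of the shares holds glutamatergic nuclei only, and Cdh4 in all GABAergic nuclei was at 208.5% of it. Free RNA of interneurons is thus not covered by the Slc17a7 share. Cdh4 in microglia-PVM- and oligodendrocyte-like nuclei, with 52 and 46 UMIs over all mice, is therefore not read as expression either. Levels of Cdh8, Cdh9, Cdh11 and Cdh18 in oligodendrocyte-, astrocyte- and microglia-PVM-like nuclei were near or under the Slc17a7 share and are read here as background.

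The groups were compared by edgeR's quasi-likelihood test on the counts summed per mouse, in 17 types with enough nuclei, and 103 pairs of a member and a type, in 15 types, passed the filter on low counts. A call is a Benjamini-Hochberg adjusted p of at most 0.05 over all genes of a type, and an error beside a log2 fold change is its SE. Between 3xTg-AD alcohol and WT control mice, the 2 groups that differ in both factors, 6 of the 103 pairs were called, 1 higher and 5 lower, where 1.25% of all pairs of a gene and a type were called (0.524% higher and 0.727% lower). Between 3xTg-AD and WT control mice, 6 pairs were called, all of them lower and all of them Cdh2, against 0.17% of all pairs (0.0913% lower), and 13 had an unadjusted p under 0.05, against 6.39%. Of these 13, 9 were of Cdh2. Between the 2 alcohol groups (3xTg-AD alcohol against WT alcohol), 5 were called, 2 higher and 3 lower, against 0.417% (0.201% higher and 0.216% lower), and 18 had an unadjusted p under 0.05, against 8.68%. Of these 18, 7 were of Cdh2 and 5 of Cdh10. All 17 calls were of Cdh2, which fell in 6 cell types, or of Cdh10, which rose in L6 IT- and L6 CT-like nuclei. The first and the second of these comparisons share the WT control mice, and the first and the third share the 3xTg-AD alcohol mice, so that they are not independent. Without mice 26, 27 and 12, the counts were 9, 6 and 7, and the percentages above are not of that fit.

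**Figure D2:**
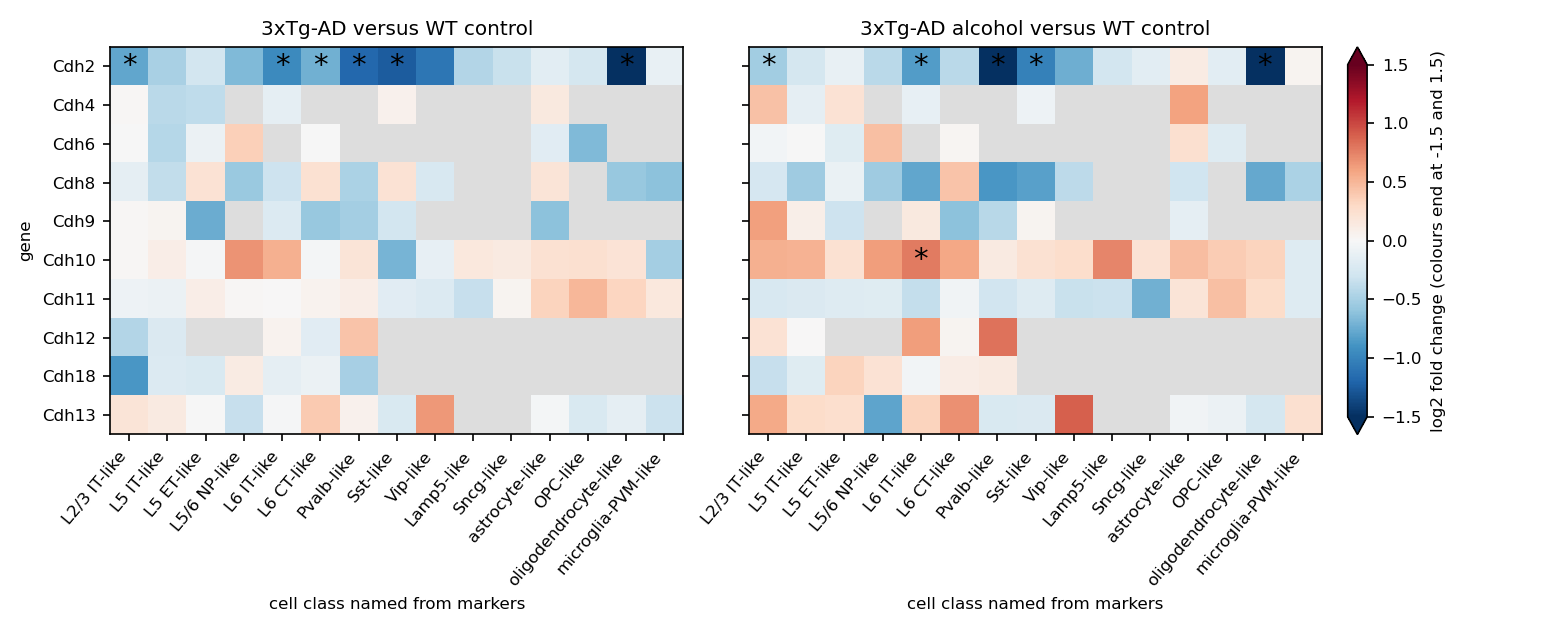
Heat maps of the log2 fold change of each cadherin (rows) in each cell type (columns), for 3xTg-AD against WT control mice and for 3xTg-AD alcohol against WT control mice, with an asterisk at each call and gray where the gene was not tested. Cdh2 was negative in 15 of 15 types in the first and in 13 of 15 in the second, and Cdh10 was positive in 14 of 15 in the second.

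The largest difference between genotypes was that of Cdh2 in oligodendrocyte-like nuclei, the myelinating glia. The 4 WT control mice had 305, 234, 366 and 543 CPM (mice 26, 27, 28 and 36) and the 4 WT alcohol mice 313, 172, 481 and 247 CPM (mice 6, 7, 17 and 18). The 4 3xTg-AD mice had 54.2, 88.3, 79.8 and 69.6 CPM (mice 12, 13, 14 and 21) and the 4 3xTg-AD alcohol mice 55.9, 67.0, 45 and 49.5 CPM (mice 4, 31, 33 and 34). Every one of the 8 3xTg-AD mice, with and without alcohol, was below every one of the 8 WT mice. Cdh2 was 6.61-fold lower in 3xTg-AD alcohol than in WT control mice (log2 fold change, -2.73 ± 0.26; adjusted p = 1.4e-12), 5.91-fold lower than in WT alcohol mice (-2.56 ± 0.27; adjusted p = 5.4e-11), and in 3xTg-AD mice without alcohol it was 5.20-fold lower than in WT control mice (-2.38 ± 0.28; adjusted p = 4.3e-09). These levels rest on between 10 and 12 UMIs of Cdh2 in each 3xTg-AD mouse, 7 to 20 in each 3xTg-AD alcohol mouse, and 11 to 206 in each WT mouse, from 43 to 330 oligodendrocyte-like nuclei per mouse. Without mice 26, 27 and 12 the first difference was -3.13 ± 0.27 on the log2 scale (adjusted p = 9.2e-22). Mice 28 and 36 were then the only WT control mice, and mouse 28 had 20 UMIs of Cdh2 in oligodendrocyte-like nuclei. With nuclei named one by one from their own markers, which gave 6019 oligodendrocyte-like nuclei in place of 2948, the 3 log2 differences were smaller, -1.15 ± 0.19 (adjusted p = 0.00026), -0.90 ± 0.19 (adjusted p = 0.017) and -1.38 ± 0.20 (adjusted p = 5.9e-05) in the same order.

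The precursors of these cells and the astrocytes did not show such a difference. In OPC-like nuclei, Cdh2 was 150, 109, 53.4 and 158 CPM in WT control mice and 144, 68.1, 141 and 90.9 CPM in 3xTg-AD alcohol mice, with overlapping groups (log2 fold change, -0.16 ± 0.26; adjusted p = 0.91). In astrocyte-like nuclei it was 141, 192, 136 and 191 CPM in WT control mice and 196, 149, 150 and 234 CPM in 3xTg-AD alcohol mice, again overlapping (0.12 ± 0.16; adjusted p = 0.83). The difference itself was tested in the 8 3xTg-AD against the 8 WT mice of both treatments, on the log2 ratio of Cdh2 in oligodendrocyte-like nuclei to Cdh2 in another type of the same mouse (exact permutation test over mice, 2-sided, 6 comparisons, chosen after the values were seen). The genotype difference was more negative in oligodendrocyte-like nuclei than in astrocyte-like nuclei (-2.33 on the log2 scale, from mean log2 ratios of -1.37 in 3xTg-AD and 0.96 in WT mice), OPC-like nuclei (-2.11) and L2/3 IT-like nuclei (-1.71). Each of these 3 exact permutation tests gave p = 0.00016, the smallest that 8 mice against 8 allow, and an adjusted p of 0.00031.

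**Figure D3:**
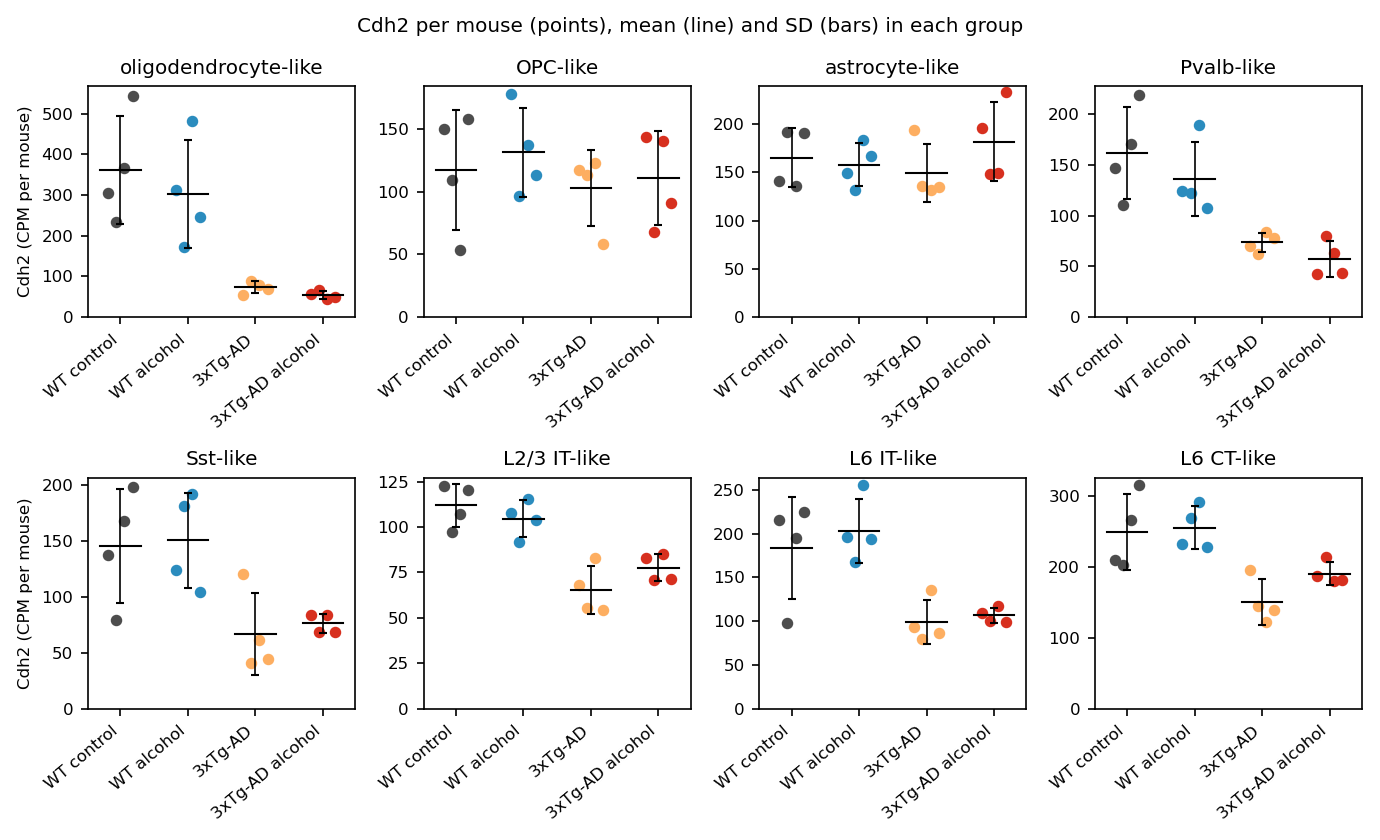
Level of Cdh2 (CPM) in each mouse of the 4 groups in 8 cell types, with points for mice and the mean ± SD of a group. In oligodendrocyte-, Pvalb- and L2/3 IT-like nuclei the 8 3xTg-AD mice lie below the 8 WT mice, and in astrocyte- and OPC-like nuclei the groups overlap.

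Among GABAergic interneurons, Cdh2 fell in Pvalb- and Sst-like nuclei. In the Pvalb-like nuclei, which correspond to fast-spiking interneurons, WT control mice had 147, 110, 171 and 219 CPM, WT alcohol mice 124, 123, 189 and 108 CPM, 3xTg-AD mice 70.2, 62.6, 84.3 and 78.0 CPM, and 3xTg-AD alcohol mice 42.1, 79.9, 63.2 and 43.7 CPM. All 8 3xTg-AD mice were again below all 8 WT mice. Cdh2 was 2.90-fold lower in 3xTg-AD alcohol than in WT control mice (log2 fold change, -1.54 ± 0.22; adjusted p = 2.3e-06), 2.38-fold lower than in WT alcohol mice (-1.25 ± 0.22; adjusted p = 0.00035) and 2.27-fold lower in 3xTg-AD than in WT control mice (-1.18 ± 0.22; adjusted p = 0.0024). In the Sst-like nuclei, the dendrite-targeting interneurons, WT control mice had 137, 79.1, 168 and 198 CPM and WT alcohol mice 124, 181, 192 and 104 CPM, against 120, 40.4, 60.8 and 44.5 CPM in 3xTg-AD and 83.4, 68.5, 84.0 and 68.7 CPM in 3xTg-AD alcohol mice. Here the genotypes overlapped through WT control mouse 27 and 3xTg-AD mouse 12, both of the 3 libraries that stood apart. The log2 fold changes were -1.25 ± 0.27 for 3xTg-AD (adjusted p = 0.018) and -1.01 ± 0.25 for 3xTg-AD alcohol (adjusted p = 0.031) against WT control mice. Without the 3 libraries they were -1.92 ± 0.29 (adjusted p = 8.4e-06) and -1.28 ± 0.24 (adjusted p = 0.0007), both against WT control mice 28 and 36 only. DESeq2 made neither call in Sst-like nuclei. The cluster make-up of these types was also compared. The larger of the 2 clusters of Sst-like nuclei held a median of 69.6% of them in WT control, 53.1% in WT alcohol, 50.7% in 3xTg-AD and 51.5% in 3xTg-AD alcohol mice, and the larger of the 2 Pvalb-like clusters held 56%, 63.2%, 65.9% and 67.7%, with overlapping ranges. Their part in the Cdh2 difference was not tested.

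The other GABAergic types gave no call of Cdh2. In Vip-like nuclei the log2 fold change was -0.73 for 3xTg-AD alcohol (adjusted p = 0.34) and -1.09 for 3xTg-AD (adjusted p = 0.15) against WT control mice, and 7 of the 8 3xTg-AD mice were below every WT mouse. The genotype difference in Pvalb-like nuclei was not shown to differ from that in Vip-like nuclei (-0.33 on the log2 scale, exact permutation p = 0.29), whereas it was more negative than that in L2/3 IT-like nuclei (-0.56; exact permutation p = 0.014, adjusted p = 0.016). These pairs of types were likewise chosen after the values were seen. Summed over all GABAergic nuclei, Cdh2 fell by 0.66 ± 0.16 on the log2 scale between WT control and 3xTg-AD alcohol mice (adjusted p = 0.043), where 1.33% of the genes tested in that class were called. In WT control mouse 27, 1091 of the 1507 GABAergic nuclei were Meis2-like, another GABAergic type, against at most 105 in any other mouse. Without mouse 27 the log2 fold change was -0.77. The call was kept in 15 of 23 alternatives.

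Among projection neurons, Cdh2 fell in L6 IT-, L2/3 IT- and L6 CT-like nuclei. The L6 IT-like levels were 216, 97.7, 196 and 225 CPM in WT control mice, 197, 168, 255 and 194 CPM in WT alcohol mice, 93.9, 80.1, 136 and 87.0 CPM in 3xTg-AD mice, and 110, 101, 117 and 99.0 CPM in 3xTg-AD alcohol mice. WT control mouse 27 was the only WT mouse that lay within the 3xTg-AD range. The log2 fold changes were -0.95 ± 0.19 for 3xTg-AD (adjusted p = 0.013) and -0.83 ± 0.18 for 3xTg-AD alcohol (adjusted p = 0.014) against WT control mice, and -0.95 ± 0.18 between the 2 alcohol groups (adjusted p = 0.0024). The change in L6 IT-like nuclei was more negative than that in L5 ET-like nuclei, which project out of the cortex, (-0.63 on the log2 scale; exact permutation p = 0.0045, adjusted p = 0.0068). This pair of types, too, was chosen after the values were seen.

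In L2/3 IT-like nuclei, the upper-layer projection neurons, the levels were 123, 97.5, 107 and 120 CPM in WT control mice, 108, 91.6, 116 and 104 CPM in WT alcohol mice, 68.2, 55.4, 82.9 and 54.5 CPM in 3xTg-AD mice, and 82.7, 70.9, 85.4 and 71.5 CPM in 3xTg-AD alcohol mice. The genotypes did not overlap, and the differences were small and even among mice. The log2 fold changes against WT control mice were -0.78 ± 0.14 for 3xTg-AD (adjusted p = 0.0038) and -0.53 ± 0.13 for 3xTg-AD alcohol (adjusted p = 0.028), of which the second was not called without the 3 libraries that stood apart (-0.54 ± 0.15; adjusted p = 0.054). In L6 CT-like nuclei, WT control mice had 211, 203, 267 and 317 CPM and 3xTg-AD mice 196, 145, 122 and 139 CPM, with no overlap (-0.72 ± 0.16; adjusted p = 0.023). The 3xTg-AD alcohol mice, with 188, 214, 180 and 181 CPM, overlapped both the 3xTg-AD and the WT control mice (-0.41 against WT control mice; adjusted p = 0.19). Cdh2 was not called in L5 IT-like (-0.27; adjusted p = 0.34) or L5 ET-like nuclei (-0.11) of 3xTg-AD alcohol mice, nor over all glutamatergic nuclei (-0.33; adjusted p = 0.19), where 3.2% of genes were called. A call in some types and none in others is not a test of a difference between types. Such a difference was tested only in the 6 pairs of types given in the text, chosen after the values were seen.

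The values that could move with the Cdh2 difference are given beside it. Of the marker genes that had named a type, those that could be tested were 8 of 8 in oligodendrocyte-like, 6 of 6 in Pvalb-like, 5 of 6 in Sst-like, 4 of 8 in L6 IT-like, 5 of 5 in L6 CT-like and 7 of 7 in L2/3 IT-like nuclei. In 3xTg-AD alcohol against WT control mice none of them was called except 1 in L2/3 IT-like nuclei. The 7 L2/3 IT markers summed to 614–925 CPM in WT control and 635–722 CPM in WT alcohol mice, and to 509–622 and 507–568 CPM in 3xTg-AD and 3xTg-AD alcohol mice, so that their medians were lower in the groups in which Cdh2 was lower, with a small overlap of WT control and 3xTg-AD mice. The 6 Sst markers in Sst-like nuclei summed to 2301–2983 and 3027–4691 CPM in WT control and WT alcohol mice, and to 1745–2535 and 1946–3609 CPM in 3xTg-AD and 3xTg-AD alcohol mice, with the lowest median, 1971 CPM, in 3xTg-AD mice. The 6 Pvalb markers in Pvalb-like nuclei had median sums of 671, 691, 583 and 614 CPM in WT control, WT alcohol, 3xTg-AD and 3xTg-AD alcohol mice. The 3 GABAergic markers there had 768, 918, 606 and 707 CPM in the same order. Both lists thus had lower medians in the 3xTg-AD groups, with overlapping ranges. In oligodendrocyte-like nuclei, the 8 oligodendrocyte markers summed to 8119–12399 CPM in WT control, 11122–14396 in WT alcohol, 11052–13918 in 3xTg-AD and 11825–14760 in 3xTg-AD alcohol mice. The 5 OPC markers there summed to 18.3–53.6 CPM in WT control and 21.6–64.3 CPM in 3xTg-AD alcohol mice, and the 3 glutamatergic markers to 542–677 and 518–643 CPM. The 6 astrocyte markers there had median sums of 194, 165, 183 and 247 CPM in WT control, WT alcohol, 3xTg-AD and 3xTg-AD alcohol mice, with overlapping ranges. Their part in the result was not tested. Of the 9 genes within 5 Mb of Cdh2 on chromosome 18 that were tested in oligodendrocyte-like nuclei, none was called in either comparison with WT control mice, and none had an unadjusted p under 0.05. In Pvalb-, Sst-, L6 IT- and L2/3 IT-like nuclei none of 10, 8, 14 and 18 such neighbors was called, with 2, 0, 1 and 3 at an unadjusted p under 0.05 in 3xTg-AD alcohol against WT control mice and log2 fold changes of up to 1.02. In L6 CT-like nuclei 1 of 14 was called in that comparison, and the lowest value there was -0.72.

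Free RNA was then set beside Cdh2 in each group. The Slc17a7 level of oligodendrocyte-like nuclei was 63.0%, 70.2%, 56.6% and 64.4% of that of glutamatergic nuclei in WT control, WT alcohol, 3xTg-AD and 3xTg-AD alcohol mice, and so varied little. The Cdh2 level was 263% and 210% of that of glutamatergic nuclei in the 2 WT groups, and 79.7% and 49.5% in the 2 3xTg-AD groups. In WT mice, Cdh2 in oligodendrocyte-like nuclei therefore was well above the Slc17a7 share, and in 3xTg-AD alcohol mice it was below it, at a level which free RNA alone could give. In astrocyte-like nuclei, Cdh2 was 120%, 110%, 163% and 166% in the 4 groups and Slc17a7 between 47.7% and 52.3%. The base of these shares, Cdh2 in the glutamatergic nuclei of each group, itself differed between groups. As mean levels, astrocyte-like Cdh2 was 165, 158, 149 and 182 CPM in the same order. In Pvalb-like nuclei, Cdh2 was 117%, 94.2%, 80.5% and 52.1% and Slc17a7 between 21.6% and 25.2%, so that Cdh2 was above it in all 4 groups.

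**Figure D4:**
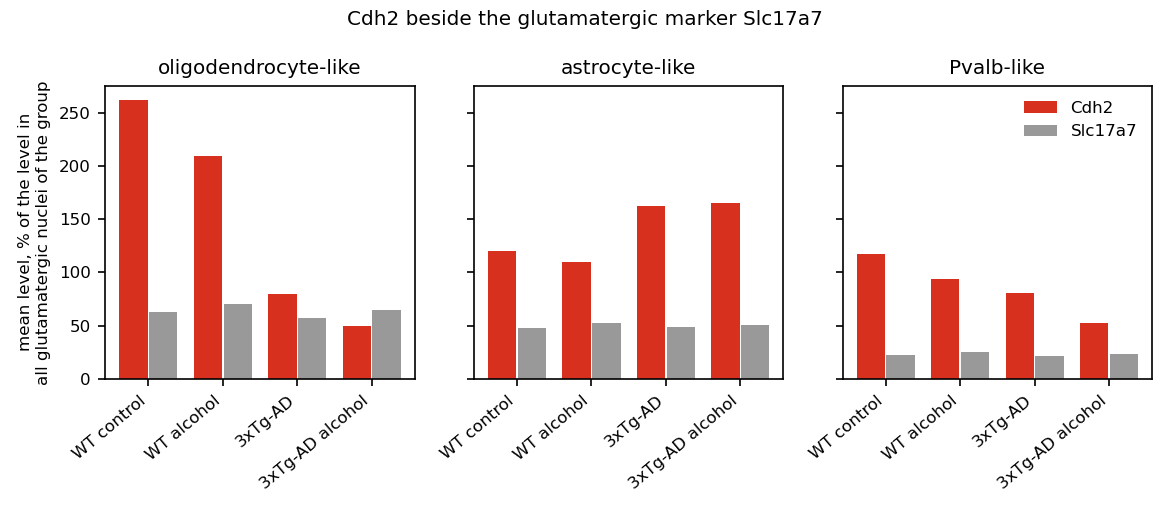
Mean level of Cdh2 and of the glutamatergic marker Slc17a7 as a percent of the level in all glutamatergic nuclei of the same group, in oligodendrocyte-, astrocyte- and Pvalb-like nuclei. In oligodendrocyte-like nuclei, Slc17a7 stayed between 56.6% and 70.2%, and Cdh2 was 263% and 210% in the WT groups and 79.7% and 49.5% in the 3xTg-AD groups.

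Cdh10, a type II cadherin, went the other way in L6 IT- and L6 CT-like nuclei. Its calls were in comparisons with the alcohol-exposed 3xTg-AD mice. The exception was 1 type called between 3xTg-AD and WT control mice with Gm42418 as a covariate (log2 fold change, 0.63). In L6 IT-like nuclei it was 178, 222, 158 and 156 CPM in WT control mice, 187, 197, 207 and 173 CPM in WT alcohol mice, 327, 215, 250 and 222 CPM in 3xTg-AD mice, and 288, 275, 279 and 363 CPM in 3xTg-AD alcohol mice. The 3xTg-AD alcohol mice were above all mice of both WT groups, and the 3xTg-AD mice overlapped both the WT and the 3xTg-AD alcohol mice. Cdh10 was 1.72-fold higher in 3xTg-AD alcohol than in WT control mice (log2 fold change, 0.78 ± 0.16; adjusted p = 0.0048) and higher than in WT alcohol mice (0.66 ± 0.15; adjusted p = 0.026). The 4 L6 IT markers that were tested had log2 fold changes of 0.31 to 0.58 between 3xTg-AD alcohol and WT control mice, none of them a call, and all 8 summed to 138–211 against 88.9–202 CPM, which overlapped. Their part in the rise of Cdh10 was not tested. The log2 fold change of Cdh10 in 3xTg-AD against WT control mice was 0.53 (adjusted p = 0.36) and that of 3xTg-AD alcohol against 3xTg-AD mice 0.25 (adjusted p = 0.64). In L6 CT-like nuclei the levels were 59.7, 56.1, 62.1 and 49.9 CPM in WT control, 40.4, 69.2, 42.8 and 59.8 CPM in WT alcohol, 62.0, 47.9, 38.5 and 66.0 CPM in 3xTg-AD, and 86.7, 78.4, 80.4 and 89.2 CPM in 3xTg-AD alcohol mice. All 4 3xTg-AD alcohol mice were above the other 12. The call was made against WT alcohol mice (0.72 ± 0.18; adjusted p = 0.042) and not against WT control (0.58; adjusted p = 0.095) or 3xTg-AD mice (0.61; adjusted p = 0.15), and it was lost in 10 of 24 alternative analyses.

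**Figure D5:**
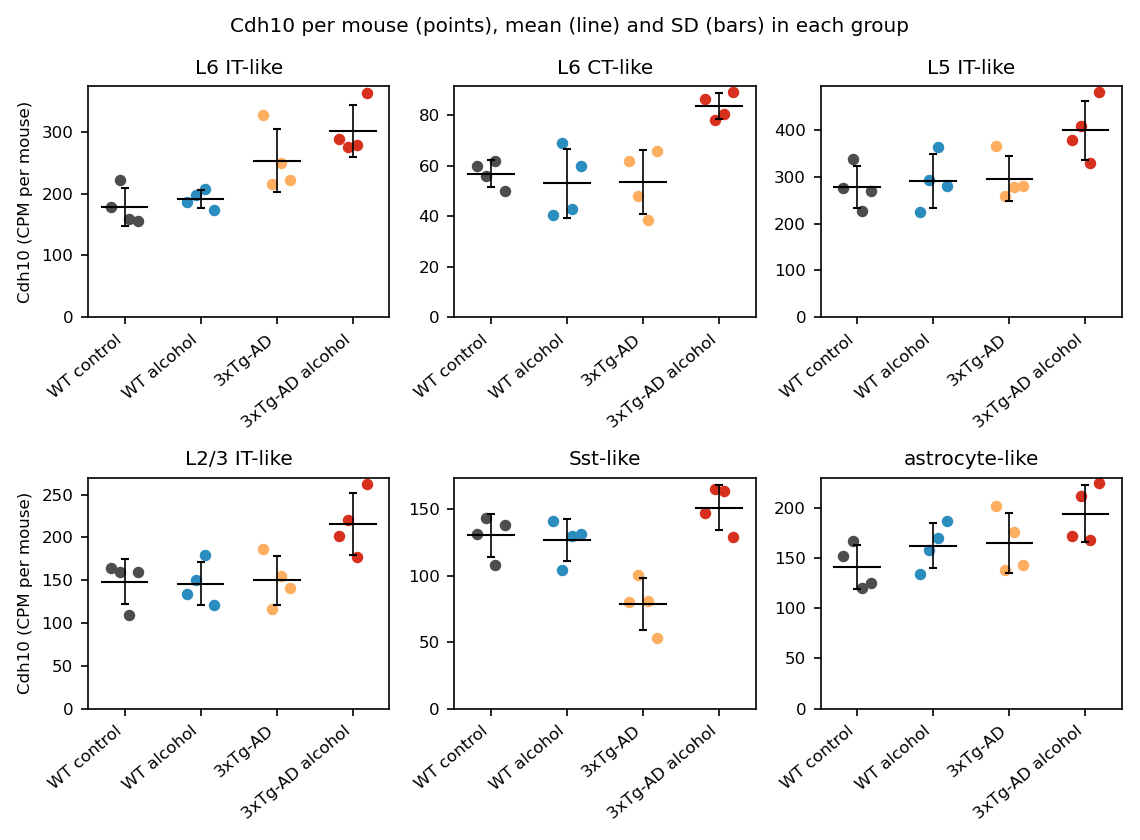
Level of Cdh10 (CPM) in each mouse of the 4 groups in 6 cell types, with points for mice and the mean ± SD of a group. In L6 CT-like nuclei the 4 3xTg-AD alcohol mice (78.4–89.2 CPM) lie above the other 12, and in L6 IT-like nuclei (275–363 CPM) above both WT groups.

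Outside L6 IT- and L6 CT-like nuclei, Cdh10 was not called by the edgeR test as described above, with values on the same side. In L5 IT-like nuclei, where its level was highest, it was 277, 339, 228 and 271 CPM in WT control, 226, 294, 365 and 281 CPM in WT alcohol, 367, 260, 279 and 282 CPM in 3xTg-AD, and 379, 410, 330 and 482 CPM in 3xTg-AD alcohol mice, and the groups overlapped (log2 fold change, 0.53 ± 0.15; adjusted p = 0.063). The log2 fold change was 0.54 in L2/3 IT-like nuclei (adjusted p = 0.059). Cdh10 was called in both of these types with DESeq2 (0.53 and 0.54; adjusted p = 0.042 and 0.046), with edgeR without the filter on low counts (0.55 in each; adjusted p = 0.04 and 0.036), without the 3 libraries that stood apart (0.69 and 0.68; adjusted p = 0.022 and 0.041) and with Gm42418 as a covariate (0.78 in each; adjusted p = 0.0095 and 0.019), and in neither under the other 4 alternatives that kept all mice. It was 0.46 in astrocyte-like nuclei (adjusted p = 0.13), and 0.51 ± 0.14 over all glutamatergic nuclei (adjusted p = 0.051). Sst-like nuclei gave another pattern, with 132, 144, 108 and 138 CPM in WT control, 141, 104, 130 and 132 CPM in WT alcohol, 80.0, 101, 81.1 and 53.4 CPM in 3xTg-AD, and 147, 165, 164 and 129 CPM in 3xTg-AD alcohol mice. The 3xTg-AD mice were below the other 12 there. The log2 fold change of 3xTg-AD alcohol against 3xTg-AD mice was 0.93 (unadjusted p = 6.8e-05; adjusted p = 0.076), and that of 3xTg-AD against WT control mice -0.70 (adjusted p = 0.4).

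The other 8 members were not called in any type or comparison by the edgeR test as described above. In 3xTg-AD alcohol against WT control mice, Cdh18 was called higher in 1 type without mice 26, 27 and 12 (1.04). With Gm42418 as a covariate, Cdh18 (1.29 to 1.48) and Cdh12 (0.76 to 0.86) were called higher in 2 types each. The log2 fold changes of the 8 members between 3xTg-AD alcohol and WT control mice are given for the 4 layer classes of projection neurons. Of the type II genes, Cdh8 had negative values in 11 of 12 types, with -0.25 ± 0.18 in L2/3 IT-like, -0.53 ± 0.20 in L5 IT-like and -0.78 ± 0.25 in L6 IT-like nuclei (lowest adjusted p of the 3, 0.14), and its 1 positive value, 0.43 ± 0.32, in L6 CT-like nuclei. Among interneurons it was -0.88 in Pvalb-like (adjusted p = 0.25) and -0.81 in Sst-like nuclei (adjusted p = 0.14). Mice 26, 27 and 12 had 129–197 CPM of Cdh8 in L5 IT-like nuclei, where the other 13 had 78.5–103 CPM. Without these 3, the L5 IT-like log2 fold change of Cdh8 was 0.01, so its value there rests on them.

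Cdh18 also moved with those libraries. Mice 26, 27 and 12 had 128–150 CPM of Cdh18 in L6 CT-like nuclei against 40.5–112 CPM in the others. Its log2 fold changes were -0.34 ± 0.30 in L2/3 IT-like, -0.18 ± 0.30 in L5 IT-like, -0.04 ± 0.30 in L6 IT-like and 0.11 ± 0.41 in L6 CT-like nuclei, and the L6 IT-like value became 0.57 without the 3. In L2/3 IT-like nuclei of 3xTg-AD against WT control mice it was -0.87 (adjusted p = 0.39), which was not a call.

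The remaining type II members had small or mixed values. Cdh9 was 0.62 ± 0.25 in L2/3 IT-like (adjusted p = 0.19), 0.09 ± 0.27 in L5 IT-like, 0.15 ± 0.21 in L6 IT-like and -0.62 ± 0.28 in L6 CT-like nuclei (adjusted p = 0.34). Its sign thus differed between the upper layer and the corticothalamic class, and neither value was a call. Cdh11 had negative values in 12 of 15 types, with -0.24 ± 0.14, -0.22 ± 0.16, -0.36 ± 0.17 and -0.05 ± 0.15 in the same 4 classes. Cdh12 had positive values in 5 of 5 types, with 0.22 ± 0.22, 0.00 ± 0.21, 0.63 ± 0.25 and 0.04 ± 0.34 in that order and at most 0.82 ± 0.30 in Pvalb-like nuclei (adjusted p = 0.2). Cdh6 was -0.04 ± 0.20 in L2/3 IT-like, -0.01 ± 0.33 in L5 IT-like and 0.03 ± 0.27 in L6 CT-like nuclei and was too low for a test in L6 IT-like nuclei. Without mice 26, 27 and 12 these values of Cdh6 were 0.32, 0.86 and -0.16, and without mouse 26 alone the L5 IT-like value was 0.60, so that neither its sign nor its size was stable.

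Outside type II, Cdh4, the relative of Cdh2, was tested in 6 types, which do not include oligodendrocyte-, Pvalb- or L6 CT-like nuclei, where its counts were too low. Its log2 fold change was 0.44 ± 0.23 in L2/3 IT-like (adjusted p = 0.31), -0.13 ± 0.27 in L5 IT-like, -0.12 ± 0.30 in L6 IT-like and 0.60 in astrocyte-like nuclei (adjusted p = 0.27). Cdh13 was 0.57 ± 0.31 in L2/3 IT-like, 0.28 ± 0.36 in L5 IT-like, 0.33 ± 0.27 in L6 IT-like and 0.69 ± 0.39 in L6 CT-like nuclei, and 0.89 in Vip-like nuclei (adjusted p = 0.42). SEs of this size mean that a change such as that of Cdh10 would often not be called in these members. Over all 103 pairs, the median log2 fold change was -0.08, and 25 pairs had an unadjusted p under 0.05, where 12.5% of all pairs did. Of these 25, 7 were of Cdh2 and 6 of Cdh10.

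The levels of each member in the type where they were highest are given for all 4 groups. None of the 6 members whose highest type could be tested was called there, although Cdh10 in L5 IT-like nuclei was under the 4 alternatives above. Cdh9 in Sst-like nuclei was 357, 237, 280 and 242 CPM in WT control, 297, 187, 405 and 310 CPM in WT alcohol, 330, 162, 215 and 218 CPM in 3xTg-AD, and 284, 234, 284 and 348 CPM in 3xTg-AD alcohol mice. Cdh4 in Sst-like nuclei was 76.9, 108, 55.9 and 75.5 CPM in WT control, 95.2, 43.9, 73.4 and 65.8 CPM in WT alcohol, 110, 76.8, 77.1 and 57.9 CPM in 3xTg-AD, and 66.7, 56.1, 92.0 and 77.3 CPM in 3xTg-AD alcohol mice. The groups overlapped for both, with log2 fold changes of 0.04 ± 0.19 and -0.08 ± 0.27 between 3xTg-AD alcohol and WT control mice. Cdh12 in Pvalb-like nuclei was 19.0, 67.2, 23.3 and 29.7 CPM in WT control, 42.9, 38.6, 47.3 and 30.2 CPM in WT alcohol, 46.8, 37.6, 48.6 and 33 CPM in 3xTg-AD, and 33.2, 58.3, 71.8 and 57.4 CPM in 3xTg-AD alcohol mice. WT control mouse 27 was well above the other 3 of its group.

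Cdh8 in L5 ET-like nuclei was 100, 185, 128 and 78.8 CPM in WT control, 101, 131, 113 and 125 CPM in WT alcohol, 201, 78.6, 122 and 152 CPM in 3xTg-AD, and 88.0, 97.4, 113 and 150 CPM in 3xTg-AD alcohol mice (log2 fold change of the last against the first, -0.10 ± 0.27). Cdh11 in L5/6 NP-like nuclei was 355, 412, 152 and 231 CPM in WT control, 230, 327, 302 and 244 CPM in WT alcohol, 392, 232, 242 and 225 CPM in 3xTg-AD, and 221, 228, 210 and 314 CPM in 3xTg-AD alcohol mice (-0.18 ± 0.22). The highest values of each WT control and 3xTg-AD group were those of mice 27 and 12 for both genes, whose libraries stood apart.

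L6b-like nuclei were too few for a test between groups, and 13 mice had at least 10. There, Cdh13 was 296 ± 20.6 CPM (SD, n = 3) in WT control, 313 ± 85.1 (n = 4) in WT alcohol, 295 ± 108 (n = 2) in 3xTg-AD and 316 ± 24.6 (n = 4) in 3xTg-AD alcohol mice, which differed by less than the spread between mice. Cdh18 was 156 ± 80.4, 107 ± 26, 156 ± 49.2 and 158 ± 22.4 CPM in the same 4 groups. Cdh6 was 71.3 ± 44.0, 87.7 ± 32.8, 71.2 ± 31.9 and 102 ± 4.96 CPM. Cdh2 was 239 ± 52.4, 274 ± 58.8, 179 ± 58.1 and 218 ± 27.2 CPM, and its groups overlapped.

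Alcohol within a genotype gave no call of a member by edgeR. Between WT alcohol and WT control mice, 0 of 103 pairs were called, against 0.0362% of all pairs, and 2 had an unadjusted p under 0.05, against 9.02%. The value of Cdh2 in oligodendrocyte-like nuclei was -0.16 ± 0.21 on the log2 scale (adjusted p = 0.85) and in Pvalb-like nuclei -0.29 (adjusted p = 0.75). Between 3xTg-AD alcohol and 3xTg-AD mice, 0 of 103 were called, against 0.201%, and 11 had an unadjusted p under 0.05, against 8.52%. Cdh2 was at -0.35 ± 0.36 in oligodendrocyte-like nuclei (adjusted p = 0.96), and Cdh8 in Sst-like nuclei at -1.03 (unadjusted p = 7.7e-05; adjusted p = 0.076). DESeq2 called none in either comparison. Without mice 26, 27 and 12, 6 pairs of the second comparison were called, all higher, 3 of Cdh18 (0.79 to 1.06), 2 of Cdh10 (0.56 to 0.65) and 1 of Cdh12 (0.90). The 0.201% above is from the fit with these mice. The share of all pairs called without them is not given, so whether the 6 exceed it cannot be told.

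The interaction of genotype and alcohol was called for 0 of 103 pairs, against 0.000861% of all pairs, with an unadjusted p under 0.05 for 6, against 4.2%, and DESeq2 called none. For Cdh2 in oligodendrocyte-like nuclei it was -0.19 ± 0.41 on the log2 scale (adjusted p = 0.98). The difference in Cdh2 between genotypes was thus not shown to depend on alcohol, and an SE of 0.41 leaves room for a moderate dependence.

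Partners of the cadherins in the junction were examined as a list of 22 catenins, proteases and other junction genes. Of these, 18 were tested in 210 pairs with a type, and none was called in any of the 6 comparisons, with 33 pairs at an unadjusted p under 0.05 in 3xTg-AD alcohol against WT control mice, where 12.5% of all pairs had one. Of the 13 other Cdh genes of the list, 7 were tested in 25 pairs, and 1 was called in the same comparison, against 1.25% of all pairs. At an unadjusted p under 0.05 were 5 of the 25 in that comparison, against 12.5% of all pairs, and 10 of the 25, with a median log2 fold change over the list of -0.52, in 3xTg-AD against WT control mice, against 6.39%, where none was called. The called pair was Cdh7, a type II cadherin, in Sst-like nuclei (-0.95 ± 0.24; adjusted p = 0.029), with 91.9–266 CPM in WT control and 76.0–106 CPM in 3xTg-AD alcohol mice, which overlapped.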

How the data were processed

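Single-nucleus libraries of 16 mice were compared in 4 groups of 4, taken from the labels. Per the labels and the study's methods, the authors aligned the reads to mm10 with Cell Ranger 6.1.1, which uses STAR, and deposited whole-number UMI counts per gene and nucleus, without normalization, for all mice in 1 table. Whether intronic reads were counted is not given in the sources used here. The members and all gene lists were chosen with earlier results of these data known.

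Counts were scaled to 10000 per nucleus, log-transformed and clustered (2000 variable genes, 30 principal components, 20 neighbors, Leiden at a resolution of 1.5; python-igraph 0.11.9, scikit-learn 1.9.0, numpy 2.4.6, scipy 1.17.1, pandas 2.3.3, Python 3.11.15), with cadherins kept out. Glutamatergic and GABAergic nuclei were clustered again. A cluster of at least 50 nuclei was named where at least 3 of a type's markers were raised 1.5-fold, where a marker was among its 50 leading genes or the markers' mean log2 fold was at least 1, where no other type of the same class (glutamatergic, GABAergic or non-neuronal) had more markers than it among the 10 leading genes, and, outside neurons, where Slc17a7 was lower than in other nuclei. Markers of other classes were not counted there. A further condition, against clusters of very low depth with no marker among those 10, was met by no cluster. The lowest median depth of a cluster was 0.483 of the median UMIs of the mouse. This rule was settled after the clusters had been seen. Names were not transferred from a reference, so they can differ from the study's names. Possible doublets, nuclei with at least 2 counts of markers of another class (27.0%), were kept and left out in an alternative. Unnamed nuclei outside the neuronal classes had no class of their own in this rule, so that counts of any class marked them. Of the 30958 nuclei marked, 12633 were named. The mark thus does not stand for doublets alone. Free RNA can also add such counts, and its part was not tested.

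Raw counts were summed per mouse and type (at least 10 nuclei per mouse, 3 mice per group) and tested with edgeR 4.0.16 (TMM, filterByExpr, robust quasi-likelihood fit of all 16 mice; limma 3.58.1, R 4.3.3), with Benjamini-Hochberg adjustment over the genes of each type. The genes named in the text are the members (each call, each member in its highest type and in 4 layer classes), the called genes of the junction lists and the 3 genes most like each member over types (for Cdh12 these, and 1 junction gene, are not reported here). The rule gave 15 calls in full, and the last 2 of 17 are given as well. In data simulated for 3xTg-AD alcohol against WT control mice in L6 IT-like nuclei (9907 genes), 48% of 100 genes changed 2-fold and 97% of 100 genes changed 4-fold were called, and 6 of 151 calls were unchanged genes. The simulation gave every gene the same set dispersion and changed only genes above a floor of counts. Its libraries differed in their totals alone. These shares are thus a check of the code and not the power or error rate of the real comparison. DESeq2 1.42.0, its size factors, no filter on low counts, a quality filter, left-out mice, Gm42418 as a covariate and nuclei named one by one were tried. The number of UMIs per mouse and type limits the precision, and SEs and SDs include both counting error and variation among mice.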

Additional observations from a re-analysis of the deposited data

Results flagged for a closer look

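Cdh10 in L6 IT-like nuclei was 363 CPM in 3xTg-AD alcohol mouse 34, apart from the 275 to 288 CPM of the other 3 mice of its group. Cdh11 in L5/6 NP-like nuclei was 392 CPM in 3xTg-AD mouse 12, apart from the 225 to 242 CPM of the other 3, and mouse 12 is 1 of the 3 libraries with the most Gm42418. These 2 values came from 64 groups of 4 mice, and chance alone sets apart a mouse in about 1 of 20 such groups. For 6 pairs of cell types, chosen after the values were seen, the genotype difference of Cdh2 was compared (8 3xTg-AD against 8 WT mice, log2 scale). This difference was not the same in 5 of the 6 exact permutation tests, adjusted over these 6 only. It was more negative in oligodendrocyte-like nuclei than in astrocyte-like (-2.33), OPC-like (-2.11) and L2/3 IT-like nuclei (-1.71), in Pvalb-like than in L2/3 IT-like nuclei (-0.56), and in L6 IT-like than in L5 ET-like nuclei (-0.63).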

How the results depend on the processing

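No paired analysis was possible because the replicate numbers are those of single mice and no number occurs in 2 groups. The log2 fold change of Cdh2 in oligodendrocyte-like nuclei kept its call in 24 of 24 alternatives in each of 3 comparisons (-3.30 to -1.15 for 3xTg-AD alcohol and -2.64 to -1.38 for 3xTg-AD against WT control, -2.72 to -0.90 for 3xTg-AD alcohol against WT alcohol), and that of Cdh2 in Pvalb-like nuclei and of Cdh10 in L6 IT-like nuclei (3xTg-AD alcohol against WT control) in 23 of 23. The alternative missing for these 2 types is that of nuclei named one by one. It gave 246 Pvalb-like and 184 L6 IT-like nuclei in all, and no value for these pairs. Over all alternatives and single pairs, values that had been called stayed called in 364 cases and lost the call in 59. The cause of the changes below was not tested.

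Member calls with Gm42418 as a covariate were 11 in place of 6 for 3xTg-AD alcohol against WT control (Cdh2 in 3 types in place of 5, and more of Cdh10, Cdh12 and Cdh18), 7 in place of 6 for 3xTg-AD against WT control, 1 in place of 0 for WT alcohol against WT control, 7 in place of 0 for 3xTg-AD alcohol against 3xTg-AD and 9 in place of 5 for 3xTg-AD alcohol against WT alcohol. Without the 3 mice richest in Gm42418, 3xTg-AD alcohol against 3xTg-AD gave 6 in place of 0. The shares of all pairs called under these alternatives are not given, so these counts have no background beside them. With nuclei named one by one, which leaves fewer nuclei in most types, 1 pair each was called in place of 6, 6 and 5 in the 3 comparisons between genotypes, each time Cdh2 in oligodendrocyte-like nuclei. The pairs called in Pvalb- and L6 IT-like nuclei had no value under this alternative, so that they were not tested there. Leaving out 1 mouse at a time gave 3 to 8 calls for 3xTg-AD alcohol against WT control, 3 to 8 for 3xTg-AD against WT control, 3 to 6 for 3xTg-AD alcohol against WT alcohol, 0 to 1 for 3xTg-AD alcohol against 3xTg-AD, and 0 to 0 for WT alcohol against WT control and for the interaction. In all glutamatergic and all GABAergic nuclei, 1 call became 2 without a filter on low counts, 4 with DESeq2, 10 without the 3 mice, 12 with the covariate, 3 without possible doublets and 0 to 4 with 1 mouse left out. For the junction genes and other Cdh genes (alternatives chosen after seeing the data), 1 call became 3 without a filter, 2 with the covariate, 0 without possible doublets, 0 with nuclei named one by one and 0 to 2 with 1 mouse left out. The type of the highest median was the same for all 10 members except with nuclei named one by one, where it was for 8. Cdh11 was then higher in L6 CT-like (238 CPM) than in L5/6 NP-like nuclei (229 CPM) and Cdh12 in L2/3 IT-like (38.6 CPM) than in Pvalb-like nuclei (36.2 CPM).

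Some log2 fold changes between 3xTg-AD alcohol and WT control mice that were not calls changed sign. Without the 3 mice, Cdh4 in L5 IT was 0.06, Cdh6 in L2/3 IT 0.32, in L5 IT 0.86 and in L6 CT -0.16, Cdh8 in L2/3 IT 0.09 and in L5 IT 0.01, Cdh11 in L6 CT 0.07, Cdh18 in L2/3 IT 0.10, in L5 IT 0.37 and in L6 IT 0.57, and Cdh13 in L5 IT -0.14 and in L6 IT -0.01. With the covariate, Cdh4 in L5 IT was 0.12 and in L6 IT 0.16, Cdh6 in L2/3 IT 0.32 and in L5 IT 0.87, Cdh8 in L2/3 IT 0.24 and in L5 IT 0.11, Cdh9 in L6 CT 0.09, Cdh11 in L2/3 IT 0.05, in L5 IT 0.16, in L6 IT 0.03 and in L6 CT 0.30, Cdh18 in L2/3 IT 0.56, in L5 IT 0.70 and in L6 IT 0.93, and Cdh13 in L5 IT -0.11. Without a filter, Cdh6 in L5 IT and Cdh18 in L6 IT were 0.01. Cdh6 in L5 IT was 0.02 with DESeq2 and 0.01 without possible doublets. With nuclei named one by one, Cdh6 in L6 CT was -0.07, Cdh11 in L6 CT 0.07, Cdh12 in L2/3 IT -0.09 and Cdh18 in L5 IT 0.03. With 1 mouse left out, Cdh4 ranged from -0.30 to 0.13 in L5 IT and -0.26 to 0.02 in L6 IT, Cdh6 from -0.16 to 0.26 in L2/3 IT, -0.28 to 0.60 in L5 IT and -0.12 to 0.50 in L6 CT, Cdh9 from -0.12 to 0.27 in L5 IT and -0.04 to 0.31 in L6 IT, Cdh11 from -0.12 to 0.02 in L6 CT, Cdh12 from -0.10 to 0.23 in L6 CT, and Cdh18 from -0.36 to 0.03 in L5 IT, -0.31 to 0.35 in L6 IT and -0.20 to 0.53 in L6 CT.

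Cdh2 in L6 IT-like nuclei, 3xTg-AD alcohol against WT alcohol, also kept its call in 23 of 23, and Cdh2 in L2/3 IT-like nuclei, 3xTg-AD against WT control, lost it with nuclei named one by one and with no mouse left out. The other calls of Cdh2 and Cdh10 were each lost without at least 1 single mouse. Without WT control mouse 36, Cdh2 was not called in L6 CT-, Sst- or L6 IT-like nuclei or, for 3xTg-AD alcohol, in L2/3 IT-like nuclei, against WT control mice, and without 3xTg-AD alcohol mouse 34 Cdh10 was not called in L6 IT- or L6 CT-like nuclei against WT alcohol mice.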
